A study of Homo sapiens with 51 samples.

Results

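The knockdown of SUV39H1 and SUV39H2 in HMLE-TWIST1 cells at day 4 was measured in 6 of the 51 total RNA libraries of the study, 3 with duplexes against both genes and 3 with a scrambled duplex. The libraries were chosen by their labels, and all 19777 genes listed for them were examined, of which 17985 had enough reads to be tested. HMLE is an immortalised human mammary epithelial cell line, and HMLE-TWIST1 is the same line overexpressing TWIST1, a transcription factor that drives the epithelial to mesenchymal transition. Both knockdown and scramble cells therefore carried the TWIST1 overexpression. The cells had 48 h with small interfering duplexes (DsiRNA) and then 48 h in fresh medium, which makes day 4. The knockdown at day 4 in the parental HMLE line (3 knockdown and 3 scramble libraries) and the knockdown at day 2 in HMLE-TWIST1 cells (again 3 and 3, taken after the 48 h with duplex) served for comparison. Libraries of both lines given DMSO, 3 for each line at day 4, served only to choose genes that separate the lines. All cells grew in mammary epithelial medium mixed with DMEM/F12 and serum. The promoter that drives TWIST1 and the duplex sequences are not given in the sources used here. Nothing in the labels says that replicates were separate cultures, so p-values measure only the spread between these libraries. With 1 scrambled control, effects of the active duplexes other than loss of their targets cannot be told apart from that loss.

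SUV39H1 and SUV39H2 are paired histone methyltransferases that place trimethylation on lysine H3K9, mainly in the compact heterochromatin around centromeres and over repeats. HP1 proteins bind this mark and keep the underlying DNA poorly transcribed. In cells with a mesenchymal programme the same enzymes have been linked to silencing of epithelial genes. Double-stranded RNA in the cytoplasm, from viruses or from the genome's own repeats, is detected by the receptors encoded by DDX58 (RIG-I, which reads short duplexes with phosphorylated 5′ ends) and IFIH1 (MDA5, which reads long duplexes), which act through MAVS and interferons to switch on antiviral effector genes.

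Depth was 11768202 to 13586330 reads per library over the listed genes, and no 2 libraries of day 4 were identical among the 66 pairs compared. Levels are given as CPM, read counts scaled to a common library size, and differences as log2 fold changes of knockdown against scramble from limma with Benjamini-Hochberg adjusted p. A gene is called where the adjusted p is under 0.05. The cells matched their label on marker genes. The 12 mesenchymal markers summed to 25830 to 27880 CPM in the scramble libraries, against 2545 to 2987 CPM in HMLE scramble libraries. The 12 basal epithelial markers summed to 175.7 to 190.7 CPM, against 12360 to 13350 CPM in HMLE, and KRT17 was at 0 in all 3 scramble libraries. In the knockdown libraries the mesenchymal sum was 17210 to 17570 CPM and the basal sum 188.3 to 193.9 CPM. FN1 alone went from a mean of 15200 to 6604 CPM within the mesenchymal sum, and of the 12 markers 3 fell (FN1, TWIST1 and VIM) and 3 rose (SPARC, COL1A1 and ZEB2). Most of the basal sum was EGFR, with means of 167.2 CPM in scramble and 169.1 CPM in knockdown, so that sum says little about the other basal markers. Of the 12 basal markers 4 rose (33.3%) and 2 fell (16.7%), against 19.0% of all genes tested in each direction. The 6 of 14 leukocyte markers listed in the table had a sum of 9.144 to 11.79 CPM in scramble and 11.93 to 12.39 CPM in knockdown. Of these CD74, which interferon also induces, rose from 0.274, 0.354 and 0.484 CPM to 4.31, 5.34 and 4.55 CPM, and LAPTM5 fell from 1.99, 0.992 and 1.31 CPM to 0.657, 0.377 and 0.345 CPM. The part of other cell types in the results was not tested. The share of reads in the top gene, RN7SK or MALAT1, was 2.41 to 3.87% in the 6 libraries.

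Both targets were lower in every knockdown library. SUV39H1 stood at 8.02, 8.51 and 9.82 CPM in the scramble libraries and at 4.31, 4.21 and 4.14 CPM in the knockdown libraries. The log2 fold change was -1.03 (SE 0.255, adjusted p = 0.00397). SUV39H2 stood at 36.9, 41.5 and 41.0 CPM in scramble and 22.6, 21.6 and 23.8 CPM in knockdown, which is -0.81 on the log2 scale (SE 0.109, adjusted p = 1.28e-05). For both genes the groups did not overlap, and both messages were still read in every knockdown library. At day 2 the log2 fold changes had been -1.40 for SUV39H1 and -1.21 for SUV39H2. The differences between days were 0.39 (adjusted p = 0.494) and 0.42 (adjusted p = 0.0845), which did not pass the test. In HMLE at day 4 the values were -0.90 and -0.50, and the differences between lines, -0.13 (adjusted p = 0.841) and -0.30 (adjusted p = 0.176), did not pass either.

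**Figure D1:**
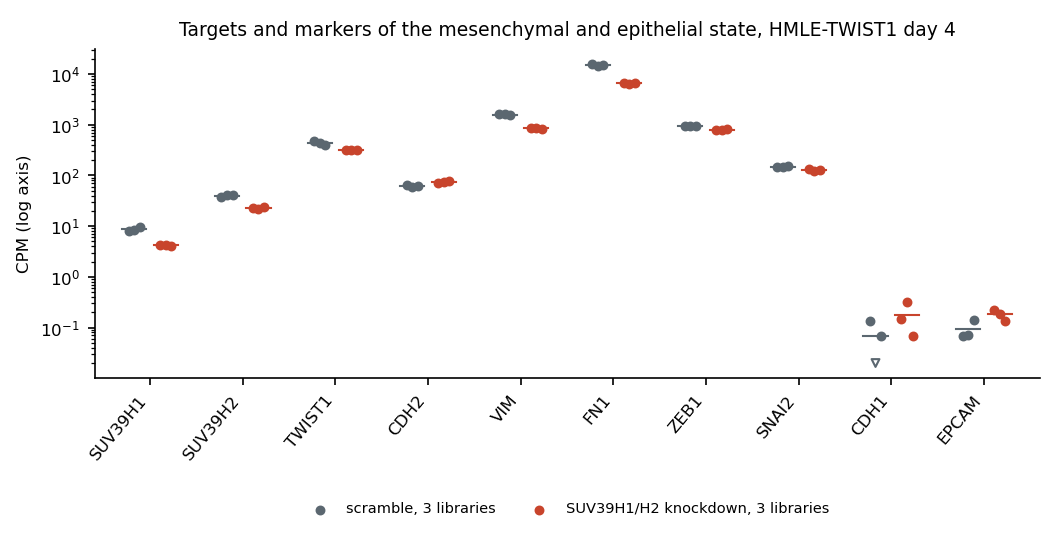
CPM on a log axis in the 3 scramble (grey) and 3 knockdown (red) libraries of HMLE-TWIST1 cells at day 4 for both targets and 8 markers of the mesenchymal and epithelial state. Points are libraries, lines are group means, and an open triangle at the foot of the axis is a library with 0 reads. SUV39H1, SUV39H2, TWIST1, VIM, FN1, ZEB1 and SNAI2 are lower in all knockdown libraries and CDH2 is higher, though ZEB1 and CDH2 did not pass the test. CDH1 and EPCAM stay at a handful of reads in both groups.

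Across the transcriptome 3420 genes were higher and 3412 lower in the knockdown, each 19.0% of the genes tested. Scaling by total reads alone moved the share of calls that were higher from 50.1% to 60.2%. Large changes ran mostly one way. Of the called genes, 705 rose and 710 fell by at least 2-fold, 197 rose and 50 fell by at least 4-fold, and 50 rose but 1 fell by at least 16-fold. Antiviral effectors made up 25 of those 50 rises.

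All 15 of the largest rises were genes known to respond to interferon. RSAD2, which encodes the antiviral enzyme viperin, went from 0.411, 0.213 and 0.208 CPM to 411, 428 and 384 CPM (log2 fold change 9.91, SE 0.304, adjusted p = 1.76e-09). OAS2, a synthetase that activates the antiviral nuclease RNase L, went from 0.617, 1.49 and 0.761 CPM to 832, 881 and 881 CPM (9.68, SE 0.22, adjusted p = 2.56e-10). MX1, a GTPase that blocks viral ribonucleoproteins, went from 9.80, 8.44 and 8.86 CPM to 1535, 1571 and 1425 CPM (7.36, SE 0.0868, adjusted p = 1.77e-19). In all 3 genes the knockdown libraries lay far above the scramble libraries and close to each other. The other 12, with log2 fold changes of 6.33 to 8.60, were MX2, CMPK2, OAS1, IFI27, OASL, BST2, IFIT3, ISG15, HERC5, GBP4, IFIT1 and IFI6.

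**Figure D2:**
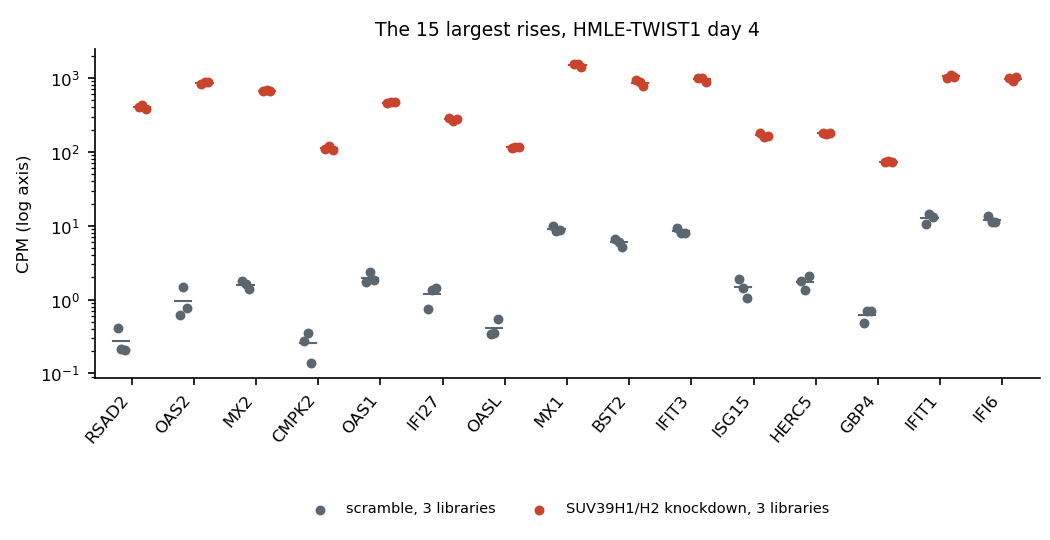
CPM on a log axis for the 15 genes with the largest rises, in 3 scramble (grey) and 3 knockdown (red) libraries of HMLE-TWIST1 cells at day 4, with group means as lines. The scramble points lie between 0.138 CPM (CMPK2) and 14.5 CPM (IFIT1), the knockdown points between 71.9 CPM (GBP4) and 1571 CPM (MX1), and no gene's groups overlap.

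Several of these genes carry the letters of the interferon-stimulated response element close upstream of their start. The stretches below come from the RefSeq promoter table (GRCh38.p14) and end before the transcription start. They are shown because these genes rose together, and capitals mark matches to GAAA, any 2 bases and GAAA again, on either strand, overlapping matches included.
IFIT1, chr10:89392490-89392559, + strand: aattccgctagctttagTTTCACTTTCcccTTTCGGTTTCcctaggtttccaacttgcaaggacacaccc
ISG15, chr1:1013360-1013429, + strand: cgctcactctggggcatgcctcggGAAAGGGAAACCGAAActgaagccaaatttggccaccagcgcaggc
BST2, chr19:17405715-17405784, - strand: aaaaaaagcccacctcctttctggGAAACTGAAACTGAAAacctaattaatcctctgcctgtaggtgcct
IFI27, chr14:94110611-94110680, + strand: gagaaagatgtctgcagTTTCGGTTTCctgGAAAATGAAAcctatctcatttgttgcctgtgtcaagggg
IFI6, chr1:27672246-27672315, - strand: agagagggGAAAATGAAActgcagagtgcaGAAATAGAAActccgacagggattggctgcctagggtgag

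Each of these 5 stretches holds 2 matches. Of the 38 antiviral effectors in the list used here, 31 had a promoter in the table, and 19 of these (61.3%) held the motif in the 250 bases before the start. The share was 3.07% over all 27305 promoters of the table and 2.45% over the 11415 tested genes with one. Among the 15 largest rises it was 7 of 12 promoters (58.3%). A match describes letters and shows no binding.

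All 38 effectors rose, with a median log2 fold change of 5.39, where 19.0% of all genes tested rose and their median was 0. The smallest rise was that of IFITM2, an entry inhibitor of enveloped viruses, from 21.2, 15.3 and 13.6 CPM to 44.1, 36.6 and 43.2 CPM (1.32, SE 0.315, adjusted p = 0.0049). ISG15, a ubiquitin-like protein attached to other proteins in infection, went from 1.92, 1.42 and 1.04 CPM to 181, 162 and 164 CPM, and IFIT1, which holds viral RNA lacking a methylated cap, from 10.6, 14.5 and 13.1 CPM to 1016, 1115 and 1026 CPM. IFITM1, IFITM2 and IFITM3 are near-identical neighbours, so the split of reads between them is uncertain.

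The sensors that lie upstream of these genes rose as well. Of 30 sensors and signalling genes 23 rose and 2 fell (median 1.75), against 19.0% of all genes tested in each direction. DDX58 went from 13.0, 12.9 and 13.7 CPM to 594, 610 and 586 CPM (5.48, SE 0.0798, adjusted p = 7.08e-19). IFIH1 went from 12.3, 12.5 and 13.8 CPM to 387, 417 and 381 CPM (4.93, SE 0.124, adjusted p = 1.26e-12). Of the transcription factors, IRF7 rose by 4.21, IRF9 by 2.65 and STAT2 by 2.40 on the log2 scale. The adaptor MAVS fell by 0.45 (adjusted p = 9.26e-05) and the kinase JAK1 by 0.36 (adjusted p = 7.38e-06).

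Interferon-induced chemokines, which recruit T cells, were at or near 0 in scramble. CCL5 had 0 reads in the 3 scramble libraries and 22.1, 24 and 21.3 CPM in the knockdown, at least 324-fold higher when the floor of 3 reads over the group is used. CXCL11 had 0 reads in scramble and 7.31, 6.16 and 6.41 CPM in the knockdown, at least 94.9-fold higher by the same floor. CXCL10 had 2 reads over the scramble libraries and 1123 over the knockdown libraries, a ratio whose 95% exact interval for counting error runs from 152 to 4543. TNFSF10, the death ligand TRAIL, rose from 7.95, 9.57 and 8.30 CPM to 151, 146 and 140 CPM (4.06, SE 0.11, adjusted p = 1.78e-12).

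The antiviral response was larger than at day 2 in the same cells. For 36 of the 38 effectors the day 4 change exceeded the day 2 change and for 0 it was below, where 10.9% of 18739 genes tested differed upward and 9.10% downward between days. The day 2 median of the list was 2.90. MX1 had already risen by 5.90 at day 2 (difference 1.48, adjusted p = 4.57e-07), whereas IFI27, of the same list, had risen by 2.33 (difference 5.42, adjusted p = 4.11e-11). In HMLE at day 4 the median was 4.53. There 21 effectors had the larger rise in HMLE-TWIST1 cells and 9 the larger rise in HMLE, against 12.2% of genes tested upward and 10.7% downward. The 21 include CMPK2, which had no reads in HMLE. RSAD2 rose by 6.63 in HMLE, 3.28 less than in HMLE-TWIST1 cells (adjusted p = 0.000439). IFI44L rose by 7.44 in HMLE and by 5.37 in HMLE-TWIST1 cells, a difference of -2.07 (adjusted p = 7.03e-10).

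CMPK2, the mitochondrial nucleotide kinase gene beside RSAD2, had 0 reads in all 6 HMLE libraries of day 4 and went from 0.274, 0.354 and 0.138 CPM to 111, 121 and 107 CPM in HMLE-TWIST1 cells. A fold for HMLE cannot be given.

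**Figure D3:**
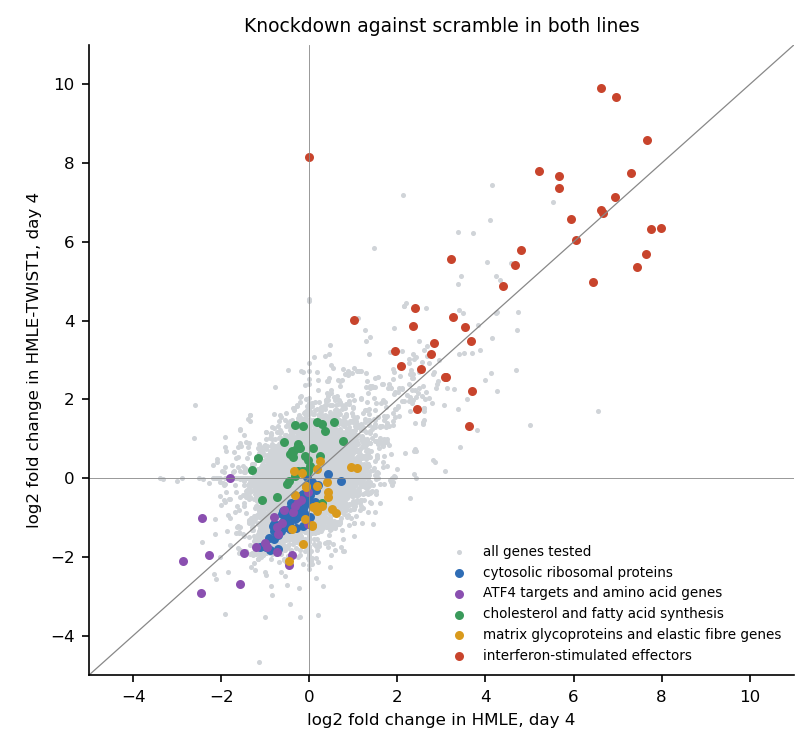
Log2 fold change of knockdown against scramble at day 4 in HMLE (horizontal) and HMLE-TWIST1 cells (vertical), with all 17985 genes tested in grey and 5 gene lists in colour. The diagonal marks equal change, and the red point at 0 on the horizontal axis is CMPK2, with 0 reads in HMLE. Antiviral effectors lie at the top right on both sides of the diagonal, ATF4 targets and ribosomal protein genes at the lower left, cholesterol synthesis genes mostly above the diagonal and matrix genes mostly below it.

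Genes that the transcription factor ATF4 switches on when amino acids run short fell together. Of 24 ATF4 targets and amino acid genes 0 rose and 23 fell (median -1.33), where 19.0% of all genes tested were lower. ASNS, asparagine synthetase, went from 511, 489 and 490 CPM to 68.7, 48.5 and 83.9 CPM (-2.92, SE 0.303, adjusted p = 7.83e-05). TRIB3, a pseudokinase that feeds back on ATF4, went from 44.4, 43.6 and 45.5 CPM to 6.57, 6.60 and 6.96 CPM (-2.70, SE 0.215, adjusted p = 2.03e-07). SLC7A11, the cystine importer, went from 138, 135 and 133 CPM to 26.2, 16.1 and 27.9 CPM (-2.56, SE 0.261, adjusted p = 5.43e-05). ATF4 itself went from 224, 239 and 213 CPM to 124, 110 and 140 CPM (-0.86, SE 0.113, adjusted p = 4.95e-05). The serine synthesis genes PHGDH, PSAT1 and PSPH fell by 1.75, 1.94 and 1.23, and the neutral amino acid transporters SLC7A5 and SLC1A5 by 2.19 and 1.86 on the log2 scale.

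At day 2 the list had a median of -0.10, and 20 of 24 members differed downward between the days, against 9.10% of all genes tested. In HMLE at day 4 the list fell as well, with 0 of 24 members higher and 20 lower (median -0.739). There 14.4% of all genes tested were lower. By the test between lines 13 members had the lower fold change in HMLE-TWIST1 cells and 2 the higher one. Over all genes tested 10.7% and 12.2% did. The difference between lines was -1.73 for SLC7A5 (adjusted p = 0.00329). For ASNS it was -0.45 and did not pass (adjusted p = 0.51). The promoters of ASNS and CHAC1 hold TGATGNAA, letters of the amino acid response element, searched on both strands, and are shown with it in capitals.
ASNS, chr7:97872439-97872506, - strand: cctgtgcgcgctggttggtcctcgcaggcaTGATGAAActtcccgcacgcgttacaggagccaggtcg
CHAC1, chr15:40953232-40953299, + strand: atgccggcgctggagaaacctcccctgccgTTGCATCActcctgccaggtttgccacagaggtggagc

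They were the only 2 of the list's 19 promoters with these letters in the 250 bases before the start (10.5%), against 3.19% of all promoters and 1.49% of those of tested genes. CHAC1, which degrades glutathione, went from 10.4, 10.2 and 11.6 CPM to 3.43, 1.38 and 2.83 CPM (-2.09, SE 0.336, adjusted p = 0.000178).

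The 15 largest falls mixed these genes with secreted and membrane proteins. COL15A1, a collagen of basement membrane zones, went from 16.4, 21.7 and 22.7 CPM to 2.26, 1.19 and 1.52 CPM (-3.52, SE 0.355, adjusted p = 4.21e-07). KCNG1, a modifier subunit of voltage-gated potassium channels, went from 55.0, 56.9 and 65.1 CPM to 8.91, 7.99 and 9.58 CPM (-2.72, SE 0.108, adjusted p = 1.38e-12). A2M, a broad protease inhibitor, went from 78.6, 74.2 and 71.2 CPM to 14.4, 14.7 and 17.9 CPM (-2.25, SE 0.292, adjusted p = 9.02e-06). FAM129A fell by 2.13, and the other falls were those of ASNS, INHBE, TRIB3, SLC7A11, B3GALT2, CBS, RIMS3, NDUFA4L2, ULBP1, ITIH5 and SLC7A5. By the test of the difference all 15 fell further at day 4 than at day 2, where 9.10% of all genes tested differed downward. Of the 15, 11 fell further in HMLE-TWIST1 cells than in HMLE, where 10.7% of all genes tested differed downward. The 15 were picked for their falls in this very comparison, which favours larger falls here. These counts therefore cannot be read as support for a difference between days or lines. COL15A1 had a log2 fold change of -0.21 in HMLE (difference -3.31, adjusted p = 0.000139).

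**Figure D4:**
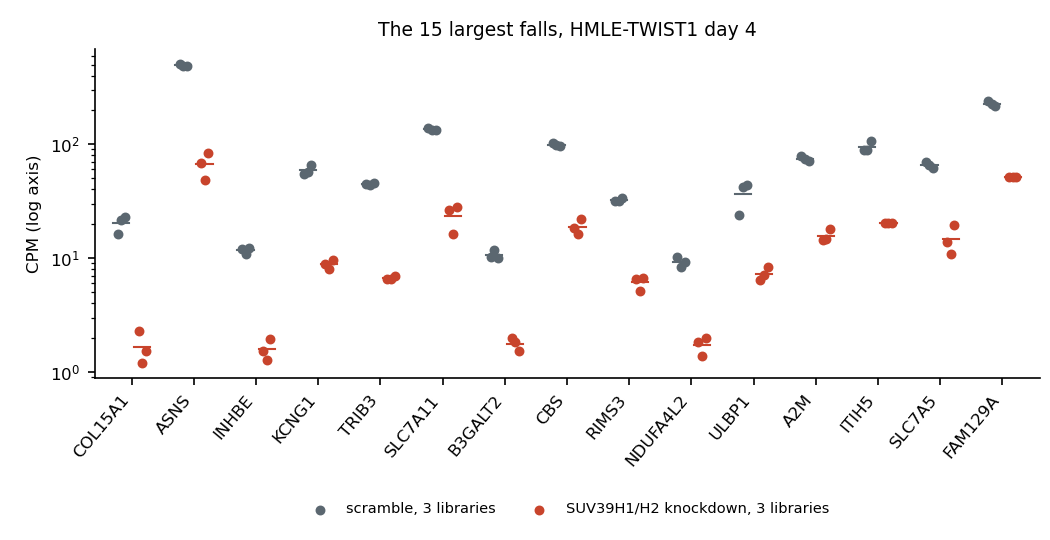
CPM on a log axis for the 15 genes with the largest falls, in 3 scramble (grey) and 3 knockdown (red) libraries of HMLE-TWIST1 cells at day 4, with group means as lines. All groups are apart, from COL15A1 (scramble 16.4 to 22.7 CPM, knockdown 1.19 to 2.26 CPM) to FAM129A (scramble 215 to 240 CPM, knockdown 51.4 to 51.8 CPM).

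Messages for the ribosome fell. Of 82 cytosolic ribosomal protein genes 0 rose and 70 fell (median -0.90), where 19.0% of all genes tested were lower. Their share of all reads was 2.51 to 2.71% in the scramble libraries and 1.16 to 1.32% in the knockdown libraries. RPL5 went from 1197, 1172 and 1192 CPM to 363, 330 and 312 CPM (-1.83, SE 0.0658, adjusted p = 3.36e-13), and RPL4 from 1809, 1666 and 1622 CPM to 523, 487 and 515 CPM (-1.74, SE 0.0517, adjusted p = 2.07e-14). EIF3L, a subunit of an initiation factor, went from 315, 313 and 314 CPM to 84.0, 81.4 and 85.8 CPM (-1.91, SE 0.0659, adjusted p = 1.97e-13). These genes have many processed copies in the genome, so their counts are uncertain where reads fit several copies.

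At day 2, 6 of these 82 genes had risen, near the 7.20% of all genes tested that were higher then, and 0 had fallen. The list's median at day 2 was 0.14, and 67 of the 82 genes differed downward between the days, against 9.10% of all genes tested. The fall was smaller in HMLE, where the median was -0.30. By the test between lines 56 genes had the lower fold change in HMLE-TWIST1 cells, against 10.7% of all genes tested. RPL5 fell by 0.90 in HMLE, a difference of -0.92 (adjusted p = 2.24e-06). Each library pools the RNA of many cells and is scaled to a common library size. Less RNA of a kind per cell and fewer cells with it cannot be told apart here or in any other comparison of these libraries.

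Histone and cell division genes were also lower. Of 60 replication-dependent histone genes 3 were higher and 37 lower (median -0.54), against 19.0% of all genes tested in each direction. HIST1H2AI went from 550, 527 and 539 CPM to 153, 122 and 123 CPM (-2.03, SE 0.185, adjusted p = 9.03e-06), and the linker histone HIST1H1C from 354, 298 and 284 CPM to 134, 121 and 117 CPM (-1.33, SE 0.0778, adjusted p = 3.34e-10). Histone genes are near-identical copies of each other, and the split of reads between them is uncertain. In HMLE the list's median was 0.30, and 38 genes differed downward between the lines, against 10.7% of all genes tested.

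Of 32 mitosis genes 0 were higher and 19 lower (median -0.415). CDC20, the activator of the anaphase-promoting complex, went from 39.0, 37.9 and 32.8 CPM to 19.6, 18.5 and 16 CPM (-1.02, SE 0.214, adjusted p = 0.00131). TOP2A, which untangles chromosomes, went from 1087, 1368 and 1435 CPM to 693, 729 and 778 CPM (-0.81, SE 0.201, adjusted p = 0.0114). The count of lower mitosis genes was 10 without knockdown replicate 1, 11 without scramble replicate 2 and 9 without scramble replicate 3. TOP2A missed the threshold in these same 3 settings, at adjusted p = 0.0542, 0.0516 and 0.0564. Of 41 DNA replication genes 12 were higher (29.3%) and 6 lower (14.6%), against 19.0% of all genes tested in each direction. CCND1, cyclin D1, rose by 1.21 and the clamp gene PCNA by 0.39.

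Genes of lipid synthesis and of sugar breakdown rose. Of 32 genes of cholesterol and fatty acid synthesis 23 were higher and 3 lower (median 0.57), where 19.0% of all genes tested were higher. HMGCS1, which makes the precursor of mevalonate, went from 35.8, 35.7 and 37.1 CPM to 89.9, 98.2 and 87.8 CPM (1.34, SE 0.0882, adjusted p = 1.88e-09). INSIG1, a sterol-regulated brake on the pathway, rose by 1.21. FADS1, ACACA and PMVK fell.

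The same list had a median of -0.43 at day 2, and 27 genes differed upward between the days, against 10.9% of all genes tested. HMGCS1 had fallen by 0.78 at day 2. In HMLE at day 4 the median was -0.23. Between lines 25 genes differed upward and 1 downward, against 12.2% and 10.7% of all genes tested. HMGCS1 had a log2 fold change of -0.33 in HMLE, a difference of 1.67 (adjusted p = 8.96e-08).

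Of 26 glycolysis and hypoxia genes 20 were higher and 2 lower (median 0.475), against 19.0% of all genes tested in each direction. CA9, a carbonic anhydrase induced by low oxygen, went from 7.61, 8.79 and 5.19 CPM to 26.2, 27.7 and 27.2 CPM (1.92, SE 0.196, adjusted p = 2.38e-06). PFKFB4, which sets the level of an activator of glycolysis, rose from 1.92, 2.41 and 2.42 CPM to 13.7, 14.7 and 12 CPM (2.50, SE 0.167, adjusted p = 1.92e-09). LDHA, lactate dehydrogenase, rose by 0.66, while VEGFA, the vascular growth factor, fell by 0.53. Between days 23 members differed upward, against 10.9% of all genes tested. That difference includes a fall at day 2, when 1 member was higher and 15 lower (median -0.278). In HMLE at day 4, 8 members were higher and 6 lower (median 0.113), where 11.7% of all genes tested were higher and 14.4% lower.

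Of 20 genes of endoplasmic reticulum chaperones and stress 10 rose and 6 fell, against 19.0% of all genes tested in each direction. CALR, calreticulin, went from 617, 593 and 620 CPM to 2439, 2440 and 2343 CPM (1.98, SE 0.0456, adjusted p = 6.05e-16). HSPA5, the chaperone BiP, went from 221, 214 and 232 CPM to 595, 601 and 568 CPM (1.40, SE 0.0527, adjusted p = 5.93e-13), and PDIA4, a disulfide isomerase, rose by 1.34. The stress sensors ERN1 and ATF6 fell by 1.21 and 0.52, the factor XBP1 by 0.28, and SEL1L, EDEM1 and HERPUD1, which serve the disposal of misfolded proteins, by 0.75, 0.70 and 0.88. The chaperones CANX, HYOU1, DNAJB9 and DNAJC3 did not pass, at -0.09, -0.04, 0.07 and 0.08. CALR had a day 2 change of 0.046 and rose by 0.57 in HMLE. Its differences, 1.94 between days (adjusted p = 3.38e-17) and 1.41 between lines (adjusted p = 2.29e-10), were among the 5 with the smallest p upward in both.

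**Figure D5:**
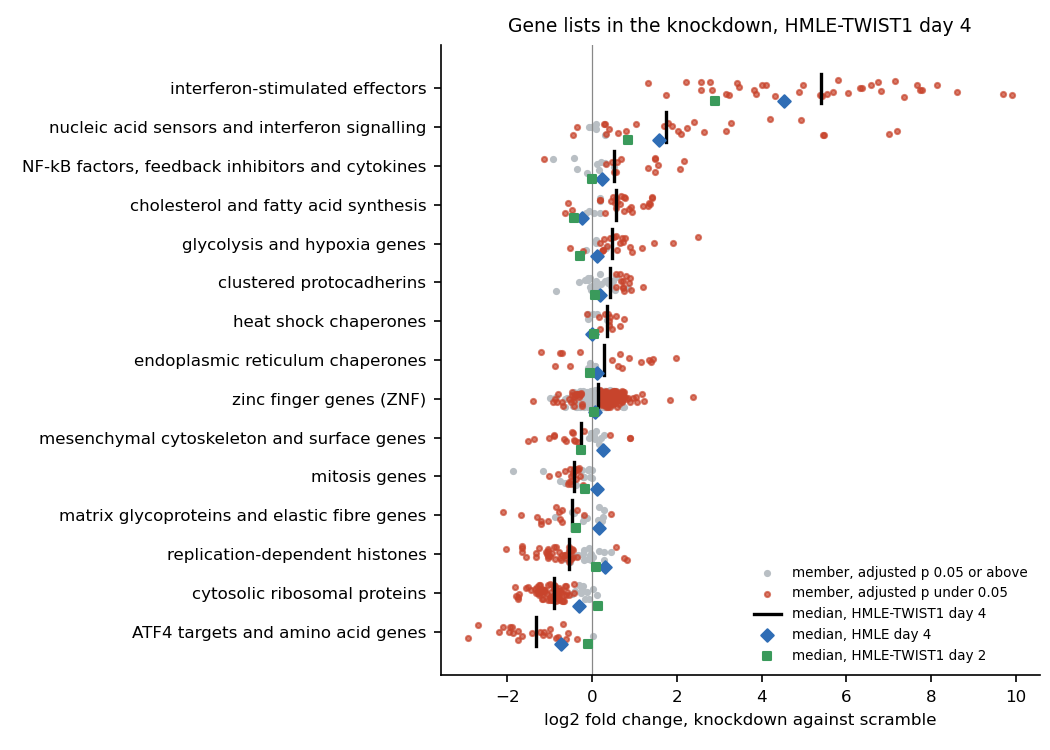
Log2 fold change of knockdown against scramble in HMLE-TWIST1 cells at day 4 for the members of 15 gene lists (points, red where adjusted p is under 0.05), with the list's median as a black line. Blue diamonds give the median in HMLE at day 4 and green squares the median in HMLE-TWIST1 cells at day 2. Medians run from 5.39 for antiviral effectors to -1.33 for ATF4 targets, and the cholesterol, ribosomal protein, histone and ATF4 lists were nearer to 0 or on its other side at day 2.

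The mesenchymal programme of the line was partly lower. TWIST1 went from 483, 445 and 406 CPM to 319, 316 and 317 CPM (-0.48, SE 0.0863, adjusted p = 0.000241), and reads of the introduced and the native gene cannot be told apart here. FN1, the matrix protein fibronectin, went from 16089, 14688 and 14837 CPM to 6683, 6504 and 6625 CPM (-1.20, SE 0.0966, adjusted p = 1.65e-06). VIM, the filament protein vimentin, went from 1603, 1608 and 1530 CPM to 871, 861 and 828 CPM (-0.89, SE 0.211, adjusted p = 0.00818). Of 18 transcription factors linked to the epithelial to mesenchymal transition 6 rose and 2 fell, TWIST1 and SNAI2, against 19.0% of all genes tested in each direction. TCF4 rose from 41.1, 38.8 and 37.2 CPM to 81.9, 85.9 and 79.2 CPM (1.07, SE 0.0715, adjusted p = 1.92e-09), and SOX9, ID3, ZEB2 and ID1 were among the others that rose. SNAI2 went from 148, 148 and 153 CPM to 133, 124 and 131 CPM (-0.21, SE 0.06, adjusted p = 0.00966). That call was lost with scaling by total reads (adjusted p = 0.105) and without knockdown replicate 2 (0.122), knockdown replicate 3 (0.0552) or scramble replicate 3 (0.0971). ZEB1 stood at 939, 955 and 964 CPM against 789, 779 and 809 CPM (-0.27, adjusted p = 0.0992). CDH2, N-cadherin, stood at 63.7, 58.0 and 61.2 CPM against 70.5, 74.4 and 79.3 CPM (0.29, adjusted p = 0.157). Both passed when only the 6 libraries were fitted (ZEB1 adjusted p = 6.62e-06, CDH2 0.000385).

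The effects on FN1, TWIST1 and SNAI2 differed between the lines. In HMLE at day 4 FN1 had a log2 fold change of 0.056 (difference -1.26, adjusted p = 6.75e-05), TWIST1 one of 0.14 (difference -0.62, adjusted p = 0.00132) and SNAI2 one of 0.66 (difference -0.87, adjusted p = 1.62e-06). At day 2 the log2 fold change of FN1 in HMLE-TWIST1 cells was -0.44, and it differed by -0.75 from day 4 (adjusted p = 4.14e-05). TWIST1 was already at -0.49 at day 2. Of the 18 transition factors 1 was higher and 6 lower at day 2 in these cells (median -0.428). Over all genes tested 7.20% were higher and 7.76% lower then. By the test between days 8 factors differed upward and 0 downward, against 10.9% and 9.10% of all genes tested.

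Among matrix glycoproteins and elastic fibre genes 13 of 25 were lower and 1 higher (median -0.47), against 19.0% of all genes tested in each direction. At day 2, 14 of them were already lower and 0 higher (median -0.375), where 7.76% of all genes tested were lower. FBN2, a fibrillin of elastic microfibrils, went from 556, 496 and 527 CPM to 122, 122 and 121 CPM (-2.11, SE 0.066, adjusted p = 4.32e-14). FAP, a surface protease of activated fibroblasts, went from 64.2, 71.9 and 74.9 CPM to 21.0, 21.2 and 23.9 CPM (-1.67, SE 0.0995, adjusted p = 4.19e-10), and TNC, tenascin C, from 187, 164 and 151 CPM to 67.4, 67.3 and 67.8 CPM (-1.30, SE 0.0754, adjusted p = 2.88e-10). SPARC, a collagen-binding protein, was the 1 that rose (0.44). By the test between lines 15 of the 25 genes had the lower fold change in HMLE-TWIST1 cells and 0 the higher one. Over all genes tested 10.7% and 12.2% did. In HMLE the list's median was 0.15. FBN2 fell by 0.47 there (difference -1.64, adjusted p = 3.65e-09).

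Of 24 mesenchymal cytoskeleton and surface genes 13 were lower and 3 higher, against 19.0% of all genes tested in each direction. At day 2, 11 of them were already lower and 0 higher (median -0.263), where 7.76% of all genes tested were lower. TAGLN, an actin-binding protein of contractile cells, went from 55.0, 48.0 and 41.6 CPM to 16.7, 16.6 and 16.5 CPM (-1.52, SE 0.129, adjusted p = 4.9e-08), and the collagen receptor DDR2 from 668, 669 and 725 CPM to 264, 260 and 272 CPM (-1.37, SE 0.143, adjusted p = 3.02e-06). PDGFRA, a receptor of mesenchymal growth factors, rose from 178, 175 and 178 CPM to 324, 322 and 349 CPM (0.91, SE 0.282, adjusted p = 0.0214), a call that a prior count of 0.5 ended (adjusted p = 0.324). Of 15 collagens 4 fell (26.7%) and COL1A1 rose, by 0.33. The fit of only the 6 libraries called 8 lower and 4 higher, and over all 16290 genes it tested 4022 lower and 4015 higher. TIMP3, a matrix-bound protease inhibitor, went from 267, 270 and 284 CPM to 77.9, 82.7 and 88.8 CPM (-1.72, SE 0.0615, adjusted p = 3.1e-13), while it rose by 0.22 in HMLE and by 0.21 at day 2. TGFB2, a ligand of the TGF-beta pathway, fell by 1.27 and its receptor gene TGFBR1 by 0.91. Of that pathway's 28 genes 9 were lower (32.1%) and 5 higher (17.9%), the latter near the 19.0% of all genes tested.

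Epithelial genes stayed low for the most part. CDH1, E-cadherin, had 3 reads over the scramble and 8 over the knockdown libraries, and EPCAM had 4 and 8, neither of which passed. DSP, the desmosome protein desmoplakin, had a sizeable level and went from 65.8, 61.7 and 65.0 CPM to 207, 202 and 194 CPM (1.64, SE 0.0506, adjusted p = 3.46e-14). It fell by 0.53 in HMLE, a difference of 2.17 (adjusted p = 5.7e-12), the smallest p upward between the lines. KRT5, the basal keratin, rose from 0.617, 0.709 and 0.899 CPM to 4.89, 4.53 and 4.96 CPM (2.48, SE 0.0941, adjusted p = 1.38e-12), and the simple keratin KRT8 from 47.9, 45.3 and 45.5 CPM to 71.3, 70.9 and 67.8 CPM (0.60, SE 0.0583, adjusted p = 2.83e-07). Another simple keratin, KRT7, fell from a mean of 90.52 CPM to 61.86 CPM. Its log2 fold change was -0.54 in the limma fit of only the 6 libraries (adjusted p = 6.74e-07).

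Many epithelial genes had too few reads in this line to follow. Of 32 junction and surface genes 9 were called higher and 5 lower, against 19.0% of all genes tested in each direction, and 20 had 10 reads in at least 3 of the 6 libraries. Of 17 keratins 4 were called higher and 4 lower, and 5 had that many reads. Junction genes that rose include the tight junction genes CGN (1.63) and F11R (1.10), the protease inhibitor gene SPINT1 (1.11) and JUP, plakoglobin (0.68), while the desmosomal cadherin DSC3 fell by 1.00.

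Genes that separate the lines were then followed as sets. They were chosen in other libraries, the DMSO cells of day 4, as genes with at least a 2-fold difference past the test. Of 2931 tested genes lower in HMLE-TWIST1 than in HMLE, 873 (29.8%) rose in the knockdown and 398 (13.6%) fell, against 19.0% in each direction over all genes tested. Many of these genes are near silent in this line, with 1135 under 1 CPM in the scramble libraries and 1066 in the knockdown libraries. Of 2753 tested genes higher in HMLE-TWIST1, 326 (11.8%) rose and 529 (19.2%) fell. With only the 6 libraries fitted those counts became 585 and 799 of 2742, in a fit that called more of all genes (4015 higher and 4022 lower of 16290). Median log2 fold changes were small, 0.11 for the lower set and -0.0705 for the higher set.

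Genes that write, read and remove H3K9 methylation were also followed. Of 10 other H3K9 methyltransferase genes and partners 5 rose and 0 fell, with changes from -0.12 to 0.57, where 19.0% of all genes tested were higher. Of 19 HP1 proteins and readers 5 rose (26.3%) and 4 fell (21.1%), not far from the 19.0% of all genes tested in each direction. SETDB1, which silences repeats with TRIM28, went from 28.0, 26.0 and 25.9 CPM to 32.0, 30.9 and 31.4 CPM (0.24, SE 0.0748, adjusted p = 0.018). Among HP1 proteins and readers CBX5, HP1 alpha, went from 695, 687 and 681 CPM to 314, 320 and 311 CPM (-1.13, SE 0.0534, adjusted p = 1.69e-11), and had fallen by 1.01 in HMLE. CBX1, HP1 beta, rose by 0.23. SMCHD1, a chromatin protein of the silent X chromosome and of gene clusters, rose from 281, 293 and 302 CPM to 529, 517 and 500 CPM (0.82, SE 0.0677, adjusted p = 3.51e-08). TRIM28 fell by 0.38. Of 11 H3K9 demethylases 5 rose (45.5%), led by KDM4D (0.84) and KDM3A (0.78), and 2 fell (18.2%), the latter near the share of all genes.

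Zinc finger genes, clustered protocadherins and HOX genes were followed as lists, and H3K9 methylation at these genes was not measured in these libraries. Of 478 zinc finger genes with ZNF symbols 114 rose (23.8%) and 24 fell (5.02%), with a median of 0.14, so the share that rose was near the 19.0% of all genes tested. Of 36 clustered protocadherins 13 rose and 0 fell, with a median of 0.42. PCDHGB2, one of the called members, went from 4.39, 5.32 and 4.91 CPM to 9.72, 7.73 and 7.72 CPM (0.76, SE 0.175, adjusted p = 0.00219). Gamma protocadherins share exons, so their reads may be split between genes. Of 27 HOX genes 4 rose (14.8%), which is below the share of all genes, and HOXB9 fell, from 14.3, 15.0 and 14 CPM to 3.94, 4.40 and 3.59 CPM (-1.82, SE 0.228, adjusted p = 5.6e-06).

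Inflammatory genes outside the interferon list rose less. Of 23 NF-kB factors, inhibitors and cytokines 13 rose (56.5%) and 1 fell (4.35%), with a median of 0.51, against 19.0% of all genes tested in each direction. CCL2, which attracts monocytes, went from 24.1, 25.9 and 27.5 CPM to 126, 110 and 113 CPM (2.17, SE 0.259, adjusted p = 3.31e-06) and had risen by 2.06 at day 2. TNFAIP3, the inhibitor A20, rose from 19.5, 19.8 and 18.8 CPM to 55.5, 54.8 and 52.3 CPM (1.48, SE 0.0627, adjusted p = 3.38e-12). IL1A fell by 1.13. Of 28 AP-1 and immediate early genes 13 rose (46.4%) and 3 fell (10.7%), MYC among the latter (log2 fold change -0.35). Of 24 apoptosis regulators 12 rose (50%) and 3 fell (12.5%), with CASP1 up by 1.20 and BCL2 down by 1.06 on the log2 scale. In these lists the share that fell was below that of all genes tested.

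The calls of this knockdown were set beside those of both comparison knockdowns, which have scramble libraries of their own. In HMLE at day 4, 11.7% of genes tested were higher and 14.4% lower, and at day 2 in HMLE-TWIST1 cells 7.20% and 7.76%. Of the 3420 genes higher here, 1043 (30.5%) were also higher in HMLE, which is 49.5% of the HMLE calls, and 267 were lower there. Of the 3412 lower genes 1264 (37%) were also lower in HMLE, 48.7% of the HMLE calls, and 169 were higher there. At day 2, 921 of the higher genes were already higher, 68.9% of the day 2 calls among these genes, and 766 of the lower genes were already lower (53.2%). The day 2 call was the opposite one for 139 of the higher genes and 88 of the lower genes.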

How the data were processed

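The authors deposited a table of log2 RPKM (reads scaled to gene length and library size) by gene symbol. The submitters' processing notes name STAR, HTSeq and hg19, with no versions or settings. Libraries were stranded, ribosomal RNA-depleted total RNA, per the labels' protocols. A further table with 81 unnamed value columns was not used. In the part of the table with the duplex libraries, whole reads were recovered from the steps of the linear values for 100% of values, within 0.001 reads. Log2 CPM of these reads (prior count 2, with a trimmed-mean scaling of log ratios, 30% of ratios and 5% of levels trimmed) were tested with limma 3.58.1 in R 4.3.3, two-sided, with an intensity trend and robust moderation (statmod 1.5.0). Genes needed 10 reads in at least 3 libraries and 15 in all. The 12 libraries of day 4 were fitted in groups of 3, and 24 libraries of both days for differences between days. Adjusted p is over all genes tested. The script was tested on simulated data. Library totals of 11768202 to 13586330 reads limit genes with few reads, and intervals and floors cover counting error only.

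Genes were named by rule: 10 fixed genes, the 15 largest rises and falls among called genes with a mean log2 CPM of 2 or more whose groups did not overlap, up to 5 members of each of 48 lists by adjusted p, and the 5 smallest adjusted p in each direction between lines and days. Some genes that the rule names are not reported here. Other genes named were chosen after their values were seen. Members and lists were chosen with earlier results of these data known. Promoters came from RefSeq (GRCh38.p14), matched by symbol. Alternatives were other scalings, filters, prior counts, moderation and weights, the deposited values, a replicate block, only the groups compared, another line difference, and each library left out.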

Additional observations from a re-analysis of the deposited data

Results flagged for a closer look

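The difference of the knockdown effect between the lines was tested directly. It passed upward in HMLE-TWIST1 cells for 2186 genes (12.2% of those tested) and downward for 1925 (10.7%). Among antiviral effectors 21 passed upward and 9 downward, among ATF4 targets 2 and 13, among ribosomal protein genes 0 and 56, and among cholesterol and fatty acid synthesis genes 25 and 1. Among genes with reads in HMLE, the smallest adjusted p upward were those of DSP (2.17 on the log2 scale), PDZD2 (2.72), CALR (1.41) and HERC6 (2.33). PDZD2, a protein with many PDZ domains, rose by 3.16 in HMLE-TWIST1 cells and had a log2 fold change of 0.44 in HMLE. Downward they were those of LAMP3 (-3.66), TIMP3 (-1.94), IFI44L (-2.07), FBN2 (-1.64) and TCEA1P2 (-1.42), a pseudogene whose reads cannot be set apart with certainty from those of its parent gene. LAMP3, a lysosomal protein that interferon induces, rose by 1.35 in HMLE-TWIST1 cells and by 5.01 in HMLE. Of the fixed genes the difference passed for TWIST1 (-0.624), CDH2 (0.755), VIM (-1.11), FN1 (-1.26), ZEB1 (-0.67) and SNAI2 (-0.868). For VIM the call (adjusted p = 0.0251) was lost without any 1 of the 3 HMLE knockdown libraries, the 3 HMLE-TWIST1 knockdown libraries or HMLE-TWIST1 scramble replicates 1 and 2, at adjusted p from 0.0503 to 0.0581 in limma.

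The difference between day 4 and day 2 in HMLE-TWIST1 cells passed upward for 2045 genes (10.9% of those tested) and downward for 1706 (9.10%). The counts were 36 and 0 of the antiviral effectors, 0 and 20 of the ATF4 targets, 0 and 67 of the ribosomal protein genes and 27 and 0 of the cholesterol and fatty acid genes. Among the smallest adjusted p upward were those of CALR (1.94), ZMYND8 (1.59), PARP9 (2.06) and PDIA4 (1.61), and the smallest downward belonged to TIMP3 (-1.91), EIF3L (-1.94), RPL5 (-1.91), RPL4 (-1.72) and RPS3 (-1.25). ZMYND8, a reader of histone marks, had a log2 fold change of 0.10 at day 2 and rose by 1.68 at day 4. Of the fixed genes FN1 (-0.748) and SNAI2 (0.268) passed.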

How the results depend on the processing

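Fitting only the 6 libraries gave 4015 higher and 4022 lower genes of 16290 tested, of which 3231 and 3263 were also called from the 12 libraries and 0 were called in opposite directions. Of the genes tested in 12 libraries 1695 lacked enough reads in the 6, with 129 called higher and 88 lower among them. That filter was chosen after seeing the data, and a gene can pass it through the group where it is high. In the fit of the 6 libraries the counts higher and lower became 4 and 8 of 15 collagens, 4 and 16 of 25 matrix genes, 5 and 12 of 24 mesenchymal cytoskeleton genes, 8 and 10 of 27 TGF-beta genes, 15 and 2 of 21 NF-kB genes and 5 and 6 of 12 mesenchymal markers. It called 8 and 2 of 20 junction genes and 4 and 1 of 5 keratins. These counts stand beside the larger numbers of calls over all genes in that fit, given above. Leaving out 1 of the 6 libraries gave 3211 to 3478 higher and 2514 to 2641 lower genes, and 9 to 13 lower mitosis genes. Of the genes that separate the lines, a 4-fold line difference left 166 that rose and 276 that fell among those higher in HMLE-TWIST1, and 442 and 202 among those lower. With only the 6 libraries 585 of the higher set rose and 799 fell, and with precision weights 540 rose. The line difference of SUV39H1, from -0.325 to 0.192 when 1 library was left out, changed sign to 0.192 without HMLE knockdown replicate 3 and to 0.132 without HMLE scramble replicate 3. The cause was not tested. Scaling by total reads shifted the median of all genes by 0.0544 (log2). For the difference between lines, fitting only the groups compared is the same fit. Over the named genes, 901 of the values recomputed for the knockdown lost their call and 8 gained one, with 12806 on the same side of the threshold.

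The replicate numbers did not pair the samples: knockdown and scramble libraries of the same number deviated from their groups with correlations of 0.0363, -0.00273 and -0.0206. With a replicate block 3335 genes were higher and 3341 lower, and the antiviral effectors kept 38 higher and the ATF4 targets 23 lower.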

Other observations

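Genes that present peptides to T cells rose, as a group chosen after their values were seen. B2M, the shared light chain of class I molecules, rose by 1.91 and the heavy chain genes HLA-B, HLA-C, HLA-E and HLA-F by 2.40, 2.07, 1.43 and 2.69 on the log2 scale, with reads between these near-identical genes uncertain. The peptide transporter genes TAP1 and TAP2 rose by 2.64 and 0.99, the immunoproteasome subunits PSMB8, PSMB9 and PSMB10 by 1.58, 2.64 and 1.5, and the class I activator NLRC5 by 2.27.

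A pair of elongation factors, again chosen after their values were seen, fell. EEF1A1, which brings charged tRNA to the ribosome, went from 1366, 1483 and 1446 CPM to 386, 378 and 363 CPM (log2 fold change -1.93, limma adjusted p = 1.78e-12). EEF2, the translocation factor, went from 3736, 3533 and 3481 CPM to 1139, 1111 and 1135 CPM (-1.67, limma adjusted p = 9.64e-13). EEF1A1 has processed copies, so its counts are uncertain.

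CENPE, a kinetochore motor, stood at 52.0, 226 and 265 CPM in the scramble libraries and 34.9, 39.9 and 47.0 CPM in the knockdown libraries. Scramble replicate 1 was far below the other scramble libraries, and the difference did not pass (limma adjusted p = 0.138).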
